A study of Mus musculus with 8 samples.

Results

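The 10 genes described here encode integrin subunits of the glomerular filtration barrier: the alpha subunits Itga1, Itga3, Itga5, Itga6, Itga8 and Itgav and the beta subunits Itgb1, Itgb3, Itgb5 and Itgb8. They were taken by name, with earlier results of these data known, from the deposited table of read counts, among the 17326 gene lines that held a count for all 8 libraries. All 10 were on such lines, and all 10 passed the filter on low counts that left 16477 genes for testing. The libraries were made from polyadenylated RNA of mouse kidney cells separated by fluorescence-activated cell sorting. They fell into 4 groups of 2, glomerular endothelium and podocytes from kidneys labelled EMCN+/+ (wild type) and EMCN-/- (knockout). Emcn encodes endomucin, a sialomucin of the endothelial surface. The labels gave neither the age of the mice, the strain, the construction of the knockout allele nor the markers used for sorting. They gave the replicate numbers 2 and 3 in each group without saying whether these were separate animals, so the p-values below measure only the spread between these libraries.

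Integrins are paired receptors of 1 alpha and 1 beta subunit that anchor cells to extracellular matrix and link it, through talin, kindlin and the kinase ILK, to actin. In the glomerulus, podocytes and endothelial cells sit on opposite faces of a shared basement membrane rich in laminin and type IV collagen. The pair of alpha3 and beta1 is the main laminin receptor of podocyte foot processes and is required for them to form. Alpha5 with beta1 and alphav with beta3 bind fibronectin and other proteins with the RGD motif, alpha6 is a laminin receptor, alpha1 binds collagen, and alpha8 with beta1 is the nephronectin receptor best known from mesangial cells. Alphav also pairs with beta5 and beta8, and its pair with beta8 is known for activating latent TGF-beta.

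Total counts per library ranged from 10478956 to 17386042, and replicates correlated at a Pearson's r of 0.950 to 0.964 in log2 CPM. Emcn, the targeted gene, was measured at 1972 and 1828 CPM (counts per 1000000 counts of a library, whose size was scaled with edgeR's TMM factors) in wild-type endothelium against 173 and 179 CPM in knockout endothelium. In podocytes Emcn was at 74.1 and 35.9 CPM in wild type and 5.59 and 4.94 CPM in knockout. All 11 endothelial markers had a higher mean in endothelium than in podocytes in each genotype, and 10 passed the edgeR test used below. All 7 podocyte markers that could be analysed (Synpo, Podxl and Wt1 among them) were higher in podocytes and passed it. Nphs1, which encodes the slit diaphragm protein nephrin and defines podocytes, was not analysed here. The summed endothelial markers ranged from 9683 to 12596 CPM in the endothelial libraries and from 576 to 888 CPM in the podocyte libraries, and the summed podocyte markers from 8891 to 19041 CPM in podocytes and from 1486 to 2823 CPM in endothelium. The share of mitochondrial counts was higher in replicate 3 (16.9% to 26.2%) than in replicate 2 (10.1% to 13.3%) in all 4 groups. So was the sum of 6 tubule markers, which ran from 2992 to 14414 CPM. The tubule genes Lrp2, Cubn, Aqp1 and Aqp2 went the other way in both knockout groups.

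Between 2 cell types that face the same basement membrane, 7 of the 10 integrin genes differed in wild type and the same 7 differed in knockout. Without wild-type podocyte replicate 3 the wild-type count was 4, with Itga5, Itga6 and Itgb5 lost. Itgb3, Itga5 and Itga6 were higher in endothelium, and Itga3, Itgav, Itgb5 and Itgb8 were higher in podocytes. Itgb1, the shared beta subunit, Itga1 and Itga8 did not pass the test in either genotype. Over all genes tested, edgeR's quasi-likelihood test called 8.99% between the wild-type cell types, 4.26% higher and 4.73% lower in endothelium. Between the knockout cell types it called 10.4%, 4.28% higher and 6.09% lower. At an unadjusted p under 0.05 there were 8 of the 10 members in wild type (19.6% of all genes) and 7 in knockout (22.9%). The libraries of the cell types did not overlap for 9 members in wild type (46.9% of all genes) and for 8 in knockout (55.0%). These 2 comparisons share no library, but their tests came from the same fit to all 8 libraries and are not independent. The median log2 fold change of endothelium against podocytes over the 10 members was -0.49 in wild type and -0.43 in knockout, beside -0.01 over all genes tested in each. In bulk samples a lower share of cells of a type and less RNA per cell cannot be told apart.

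**Figure D1:**
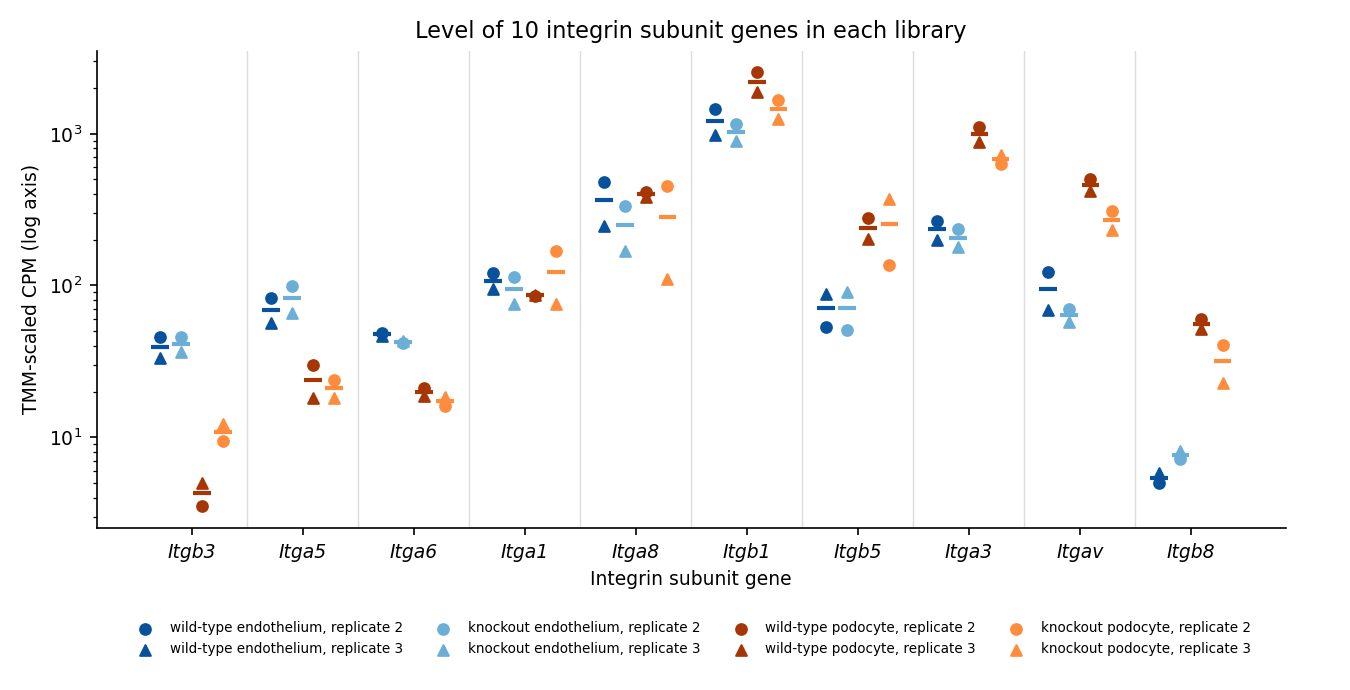
Level of each of the 10 integrin genes in the 8 libraries, in CPM on a log axis; colours mark the 4 groups, circles replicate 2 and triangles replicate 3. Itgb1 is the highest in every library, Itgb3 and Itgb8 change places between endothelium and podocytes, and the 2 knockout podocyte libraries lie far apart for Itga8 (455 and 110 CPM).

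Upstream sequences of 3 members whose level differed between the cell types are shown because the results divide the genes by cell type, 2 from genes higher in podocytes (Itgav and Itgb5) and 1 from a gene higher in endothelium (Itga5). Each is the 250 bases before a RefSeq transcription start on GRCm38.p6, 5′ to 3′ on the strand of the gene. Capitals mark the GC-box hexamer GGGCGG on either strand. The windows lie at chr2:83724147-83724396 on the + strand for Itgav, at chr16:33829415-33829664 on the + strand for Itgb5 and at chr15:103366792-103367041 on the - strand for Itga5. The Itgav window lies inside the annotated span of the gene (83722303 to 83806917), so it is not upstream of the whole gene.
Itgav: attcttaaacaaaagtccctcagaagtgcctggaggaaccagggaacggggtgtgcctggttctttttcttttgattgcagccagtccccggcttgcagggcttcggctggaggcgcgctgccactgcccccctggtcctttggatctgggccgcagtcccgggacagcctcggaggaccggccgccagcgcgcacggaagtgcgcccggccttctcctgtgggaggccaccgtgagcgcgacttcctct
Itgb5: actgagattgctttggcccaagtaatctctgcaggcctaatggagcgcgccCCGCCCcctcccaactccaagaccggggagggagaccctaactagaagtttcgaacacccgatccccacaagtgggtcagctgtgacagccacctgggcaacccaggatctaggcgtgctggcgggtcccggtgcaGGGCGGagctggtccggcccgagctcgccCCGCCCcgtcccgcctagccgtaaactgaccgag
Itga5: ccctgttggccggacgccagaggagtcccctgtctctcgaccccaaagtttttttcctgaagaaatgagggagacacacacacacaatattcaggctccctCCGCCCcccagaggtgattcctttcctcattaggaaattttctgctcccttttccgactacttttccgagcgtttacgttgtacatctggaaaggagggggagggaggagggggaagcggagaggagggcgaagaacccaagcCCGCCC

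RefSeq promoter entries matched 8 of the 10 members, all but Itga6 and Itgb3. The GC-box had 3 matches in the Itgb5 window, 2 in the Itga5 window and none in the Itgav window. Over the 8 members 4 windows held it (Itga3, Itga5, Itgb1 and Itgb5), against 32.7% of 32851 windows of the same length from all genes. The ETS core CGGAAG was found in 2 of 8 (Itga3 and Itgav) against 13.6% of all windows, and the E-box CANNTG in 6 of 8 against 66.2%. The WT1 and EGR motif GCGTGGG (4.30% of all windows), the homeodomain motif TAATTA (4.84%) and the TATA hexamer TATAAA (12.4%) were in none of the 8. Both strands were searched, and none of the motifs contains another. A match describes letters in the window, not a bound site.

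Among the podocyte-higher subunits, Itga3 encodes the alpha chain of the main podocyte laminin receptor (chromosome 11, 95044475 to 95076844, GRCm38.p6). Itga3 was measured at 1103 and 877 CPM in wild-type podocytes and at 267 and 200 CPM in wild-type endothelium. The knockout libraries had 630 and 727 CPM in podocytes and 234 and 178 CPM in endothelium. Every podocyte library was above every endothelial library. The level in endothelium was 4.23-fold lower than in podocytes in wild type (log2 fold change -2.08, SE 0.27, edgeR adjusted p = 0.000730) and 3.29-fold lower in knockout (log2 fold change -1.72, SE 0.27, edgeR adjusted p = 0.00239).

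Itgav, the alpha chain shared by the RGD-binding alphav receptors (chromosome 2, 83722303 to 83806917), was at 504 and 419 CPM in wild-type podocytes and at 122 and 68.7 CPM in wild-type endothelium. In knockout, Itgav was at 309 and 232 CPM in podocytes and at 69.6 and 57.3 CPM in endothelium. The libraries of the 2 cell types did not overlap in either genotype. The log2 fold change of endothelium against podocytes was -2.28 (SE 0.31, edgeR adjusted p = 0.000899) in wild type and -2.09 (SE 0.31, edgeR adjusted p = 0.00161) in knockout.

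Itgb8, the beta chain of the TGF-beta activating receptor (chromosome 12, 119162803 to 119238276), was at 59.8 and 51.9 CPM in wild-type podocytes and at 5.01 and 5.79 CPM in wild-type endothelium. Knockout podocytes held 40.6 and 22.6 CPM and knockout endothelium 7.19 and 8.09 CPM. Its 2 knockout podocyte libraries were the only podocyte libraries under 50 CPM, and both still lay above every endothelial library. The difference was 10.3-fold in wild type (log2 fold change -3.37, SE 0.34, edgeR adjusted p = 0.000154) and 4.14-fold in knockout (log2 fold change -2.05, SE 0.32, edgeR adjusted p = 0.00234).

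Itgb5, the beta chain of the vitronectin receptor (chromosome 16, 33829665 to 33949338), was at 277 and 204 CPM in wild-type podocytes and at 53.6 and 87.5 CPM in wild-type endothelium. In knockout it was at 137 and 371 CPM in podocytes and at 50.8 and 90.3 CPM in endothelium. The cell types did not overlap, and the 2 knockout podocyte libraries lay further apart than those of any other group. The log2 fold change was -1.77 (SE 0.46, edgeR adjusted p = 0.0371) in wild type and -1.85 (SE 0.46, edgeR adjusted p = 0.0282) in knockout. The Itgb5 call was lost in 5 alternatives in each genotype, 4 of them in wild type by leaving out 1 library of the compared groups (adjusted p from 0.0774 to 0.215). In knockout it was lost without endothelium replicate 2 (log2 fold change -1.50, adjusted p = 0.175) or podocyte replicate 3 (-0.97, adjusted p = 0.159). There it was also lost with scaling by library size only and with only the 4 libraries compared, and in both genotypes with a minimum mean of 5 CPM.

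Of the endothelium-higher subunits, the largest fold in wild type was that of Itgb3 (chromosome 11, 104608000 to 104670476), the beta chain that pairs with alphav in endothelium and with alphaIIb in platelets. Itgb3 was at 45.8 and 33.1 CPM in wild-type endothelium and at 3.50 and 5.01 CPM in wild-type podocytes, from 603 and 458 counts against 54 and 69. In knockout it was at 45.6 and 36.2 CPM in endothelium and at 9.38 and 12.2 CPM in podocytes. All 4 endothelial libraries were above all 4 podocyte libraries. The difference was 9.28-fold in wild type (log2 fold change 3.21, SE 0.33, edgeR adjusted p = 0.000173) and 3.80-fold in knockout (log2 fold change 1.93, SE 0.31, edgeR adjusted p = 0.00264). Platelet markers, 5 genes led by Treml1, Pf4 and Ppbp, summed to between 3.11 and 10.4 CPM in the endothelial libraries and to between 2.11 and 3.10 CPM in the podocyte libraries. The part of platelet RNA in the Itgb3 level was not tested.

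Itga5, the alpha chain of the fibronectin receptor (chromosome 15, 103344286 to 103366791), was at 82.3 and 56.2 CPM in wild-type and at 99.8 and 65.9 CPM in knockout endothelium. In podocytes Itga5 was at 29.8 and 18.1 CPM in wild type and at 24.0 and 18.1 CPM in knockout. No podocyte library reached the lowest endothelial one. The log2 fold change was 1.53 in wild type (SE 0.33, edgeR adjusted p = 0.0145) and 1.98 in knockout (SE 0.34, edgeR adjusted p = 0.00366). The wild-type call was lost without endothelium replicate 2 (log2 fold change 1.23, adjusted p = 0.101) or podocyte replicate 3 (1.21, adjusted p = 0.132).

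Itga6, a laminin-binding alpha chain (chromosome 2, 71786886 to 71858427), had the closest replicates of the 10 genes in endothelium, at 48.8 and 46.3 CPM in wild type and 41.5 and 43.0 CPM in knockout. In podocytes Itga6 was at 21.1 and 18.7 CPM in wild type and 16.2 and 18.3 CPM in knockout. Endothelium was above podocytes in every library, 2.39-fold in wild type (log2 fold change 1.26, SE 0.23, edgeR adjusted p = 0.00552) and 2.45-fold in knockout (log2 fold change 1.30, SE 0.23, edgeR adjusted p = 0.00503). Without wild-type podocyte replicate 3 the wild-type call was lost (log2 fold change 1.17, adjusted p = 0.0639).

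Of the subunits that did not pass, Itgb1 is the obligate partner of alpha1, alpha3, alpha5 and alpha8 (chromosome 8, 128685654 to 128733579). Itgb1 was at 1453 and 986 CPM in wild-type endothelium, 1159 and 903 CPM in knockout endothelium, 2536 and 1881 CPM in wild-type podocytes and 1667 and 1243 CPM in knockout podocytes. The podocyte libraries were above the endothelial libraries of their genotype, at a log2 fold change of endothelium against podocytes of -0.86 (95% interval -1.55 to -0.16, edgeR adjusted p = 0.146) in wild type. The knockout value was -0.50 (95% interval -1.19 to 0.19, edgeR adjusted p = 0.391). The wild-type difference passed the test once the replicate number was a block (log2 fold change -0.87, edgeR adjusted p = 0.0232).

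Itga8, the nephronectin receptor chain (chromosome 2, 12106632 to 12301985), was at 482 and 246 CPM in wild-type endothelium and 333 and 170 CPM in knockout endothelium. In podocytes Itga8 was at 416 and 380 CPM in wild type and 455 and 110 CPM in knockout. The 2 cell types overlapped, and Itga8 had the widest replicate spread of the 10 genes relative to its mean, 282 ± 244 CPM (SD, n = 2) in knockout podocytes. Its log2 fold change was -0.13 (95% interval -1.38 to 1.12) in wild type and -0.17 (95% interval -1.42 to 1.09) in knockout.

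Itga1, a collagen-binding alpha chain (chromosome 13, 114958079 to 115101964), was at 120 and 94.4 CPM in wild-type endothelium and 113 and 75.2 CPM in knockout endothelium. In podocytes Itga1 was at 84.8 and 87.1 CPM in wild type and 168 and 75.7 CPM in knockout. The knockout libraries of the cell types overlapped and the wild-type ones did not. The log2 fold change was 0.32 (95% interval -0.45 to 1.10) in wild type and -0.37 (95% interval -1.15 to 0.40) in knockout.

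Both genes are known from mesangial cells, and 8 mesangial and mural markers were measured beside them. In knockout podocytes these markers summed to 894 CPM in replicate 2, where Itga8 and Itga1 were high, and to 447 CPM in replicate 3, where both were low. In wild-type podocytes they summed to 608 and 615 CPM. In wild-type endothelium, where Itga8 was at 482 and 246 CPM, they summed to 340 and 331 CPM, and in knockout endothelium to 452 and 325 CPM. The list is mixed: Mcam (108 CPM in wild-type endothelium against 35.0 CPM in wild-type podocytes) and Piezo2 were higher in endothelium on average. The other 6 were higher in podocytes, Tagln (12.8 against 243 CPM) and Ren1 among them. Their part in the spread of Itga8 and Itga1 was not tested. Of the 10 members, 5 overlap another annotated gene: Itga1 with Pelo, Itga5 with Mir6963, Itga8 with E030013I19Rik, Itgav with Dnmt3l-ps1 and Itgb8 with Gm52023. Whether the counting used strand was not given in the sources used here, so the assignment of reads in those overlaps is uncertain.

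**Figure D2:**
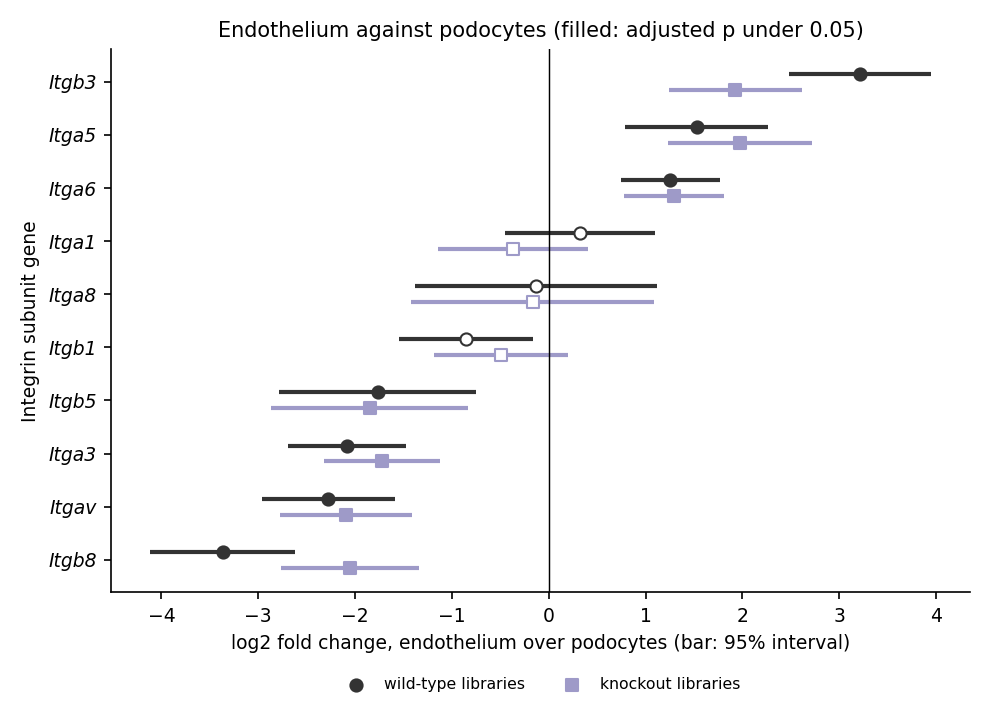
Log2 fold change of endothelium against podocytes for each integrin gene in wild type and knockout, with 95% intervals from edgeR; filled symbols passed the adjusted threshold and open symbols did not. Itgb3, Itga5 and Itga6 lie to the right of 0 and Itga3, Itgav, Itgb5 and Itgb8 to the left in both genotypes.

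The level that remained in the other cell type was set beside that of its markers. The mean level of Itgb8 in wild-type endothelium was 9.68% of that in wild-type podocytes, close to the podocyte markers Synpo (7.03%), Wt1 (8.26%) and Tcf21 (8.57%). Itgav stood at 20.6%, Itga3 at 23.6% and Itgb5 at 29.4%, with Podxl (16.7%) below them and Clic5 (26.6%) among them. In knockout Itgb8 stood at 24.2%, Itgav at 23.5%, Itga3 at 30.4% and Itgb5 at 27.7%, with Cdkn1c (7.33%) the lowest and Clic5 (39.6%) the highest podocyte marker and Wt1 at 8.94%. Itgb8 was near Wt1 in wild type and above it in knockout. The test of whether its cell type difference changed with genotype, given below, did not pass. Its place relative to Wt1 was not tested. In the opposite direction Itgb3 in wild-type podocytes was at 10.8% of its endothelial level, within the range of endothelial markers such as Egfl7 (2.96%), Pecam1 (4.27%), Ehd3 (8.66%), Cdh5 (8.72%), Esam (10.6%) and Eng (12.7%). Itga5 at 34.6% and Itga6 at 41.8% were near Plvap (39.4%), the highest of the 11 endothelial markers by this measure. In knockout Itgb3 stood at 26.3%, Itga5 at 25.4% and Itga6 at 40.7%, each above all 11 endothelial markers by mean level. Of these markers Egfl7 (2.73%) was the lowest and Plvap the highest. The Plvap mean in knockout endothelium came mainly from replicate 2, with 15181 counts against 798 in replicate 3. In knockout podocytes Plvap had 1669 and 595 counts, so its place below the 3 integrin genes is uncertain. What share of the integrin levels came from cells of the other type was not tested.

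Levels of different genes were compared per kilobase of the longest annotated transcript. On that scale Itgb1 was highest in all 4 groups, at 320 ± 86.5 CPM per kb in wild-type endothelium, 270 ± 47.5 in knockout endothelium, 579 ± 121 in wild-type podocytes and 381 ± 78.6 in knockout podocytes (SD, n = 2). In wild-type endothelium Itga8 and Itga3 came next with overlapping libraries. After a gap followed Itgb5, Itga5, Itgav, Itga6 and Itga1, where each neighbour overlapped the next, and then Itgb3 and Itgb8 in that order without overlap. Knockout endothelium had the same genes in the first 5 places and the same last pair, but there the libraries of Itga1 and Itgb3 overlapped. In wild-type podocytes the order was Itgb1, then Itga3, then Itgb5, Itga8 and Itgav with overlapping neighbours, then Itga1, then Itgb8, Itga5 and Itga6 with overlapping neighbours, and Itgb3 last. In knockout podocytes the first 6 places were held by the same genes, Itga5, Itga6 and Itgb8 overlapped, and Itgb3 was again last. Per kilobase of the median transcript, the number of genes at the same place was 5 of 10 in wild-type endothelium, 4 in knockout endothelium and 7 in each podocyte group. The longest and median transcripts differed most for Itgav, at 7054 and 688 bases.

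As a share of the 6 alpha members per kilobase of the longest transcript, Itga3 made up 58.3% and 56.1% in wild-type podocytes, 46.9% and 69.0% in knockout podocytes and between 28.0% and 34.6% in endothelium. Itga8 made up 42.2% and 33.7% in wild-type endothelium and 36.3% and 27.6% in knockout endothelium, against 18.4% and 20.3% in wild-type podocytes and 28.3% and 8.71% in knockout podocytes. Itga5 accounted for 9.57% and 10.2% in wild-type endothelium and 14.4% and 14.2% in knockout endothelium, and for less than 2% in podocytes. These shares depend on the transcript length used. The short median transcript of Itgav (688 bases, against 7054 for the longest) raises its share on the median scale. Per kilobase of the median transcript Itgav had the largest alpha share in wild-type podocytes (65.4% and 65.2%), knockout podocytes (59.6% and 62.1%) and wild-type endothelium (41.3% and 39.4%). In knockout endothelium Itgav (a mean of 36.9%) and Itga8 (30.6%) overlapped. The Itga3 share on that scale was between 17.9% and 28.6% in podocytes and between 13.4% and 18.4% in endothelium, and the libraries of the cell types overlapped in knockout but not in wild type.

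Of the 4 beta members, Itgb1 made up between 73.4% and 93.9% in all 8 libraries, and between 81.3% and 96.1% per kilobase of the median transcript. Itgb5 made up a mean of 11.1% in wild-type podocytes, 8.63% and 25.5% in knockout podocytes and between 4.03% and 10.1% in endothelium. The 2 smallest shares changed order between the cell types. The ratio of Itgb8 to Itgb3 per kilobase was between 0.0753 and 0.154 in the 4 endothelial libraries, 11.8 and 7.13 in wild-type podocytes and 2.98 and 1.28 in knockout podocytes. Itgb8 was below Itgb3 in every endothelial library and above it in every podocyte library.

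**Figure D3:**
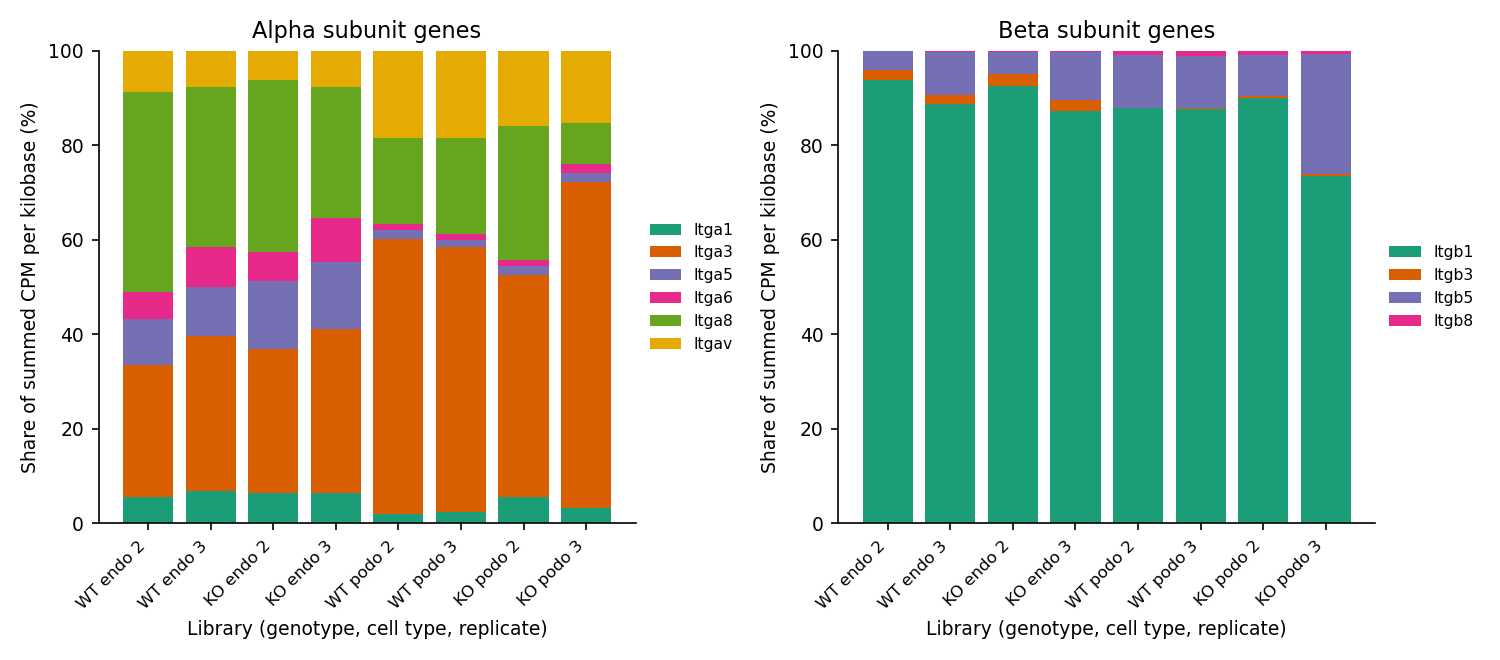
Share of each subunit in the summed CPM per kilobase of the longest transcript of the 6 alpha members (left) and the 4 beta members (right), 1 bar per library. Itga3 takes over 46% of the alpha sum in every podocyte library and under 35% in every endothelial library, and Itgb1 over 73% of the beta sum in every library.

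Loss of Emcn was then compared with wild type within each cell type. No integrin member passed the test in endothelium (edgeR adjusted p from 0.716 to 0.999) or in podocytes (edgeR adjusted p from 0.978 to 0.995), where 0.00607% of all genes tested was called in each, the single gene Emcn. In endothelium 0 of 10 members had an unadjusted edgeR p under 0.05, against 5.49% of all genes. In podocytes 3 of 10 did, against 4.43%. DESeq2 and limma voom called 0 members in each as well. The interaction, which is the knockout effect in endothelium minus that in podocytes, also called none (0.0% of all genes, with 2.6% at an unadjusted p under 0.05).

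The 3 podocyte members at an unadjusted p under 0.05 were 2 subunits that were lower and 1 that was higher in knockout, and none held after adjustment. Itgb3 was at 9.38 and 12.2 CPM in knockout against 3.50 and 5.01 CPM in wild-type podocytes, a log2 difference of 1.34 (95% interval 0.63 to 2.05, edgeR adjusted p = 0.978). Itgb8 was at 40.6 and 22.6 CPM against 59.8 and 51.9 CPM, a log2 difference of -0.82 (95% interval -1.49 to -0.15, edgeR adjusted p = 0.978). Itgav was at 309 and 232 CPM against 504 and 419 CPM, a log2 difference of -0.77 (95% interval -1.43 to -0.11, edgeR adjusted p = 0.978). In each of the 3 the wild-type and knockout podocyte libraries did not overlap, as was so for 6 of the 10 members and for 31.2% of all genes tested.

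Itga3 was next, with both knockout podocyte libraries (630 and 727 CPM) below both wild-type libraries (1103 and 877 CPM) and a log2 difference of -0.55 whose 95% interval ran from -1.13 to 0.04. Itgb1 differed by -0.60 (95% interval -1.29 to 0.09). Itga6 did not overlap either but differed by only -0.21 (95% interval -0.72 to 0.30). The knockout podocyte libraries of Itga8 and Itgb5 lay on both sides of the wild-type ones, with 95% intervals of -1.75 to 0.76 and -0.91 to 1.07. The members' median log2 difference in podocytes was -0.35, beside 0.02 over all genes.

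Podocyte markers moved in the same direction in the same libraries. Their sum was 19041 and 12344 CPM in wild-type podocytes and 8891 and 10583 CPM in knockout podocytes, with a median log2 difference over the 7 genes of -0.63, and 6 of the 7 had non-overlapping groups while none passed the test. As a share of that sum Itga3 was 5.79% and 7.11% in wild type and 7.09% and 6.87% in knockout. Itgav was 2.65% and 3.39% in wild type and 3.47% and 2.20% in knockout. Itgb8 was 0.314% and 0.420% in wild type and 0.456% and 0.214% in knockout. These shares overlapped between the genotypes for each of the 3 genes. The shares of Itga5 and Itga6, also lower on average in knockout podocytes, were higher in both knockout libraries than in both wild-type ones. The part of podocyte RNA in these differences was not tested. The level of Itgb3 was higher in knockout. The endothelial markers summed to 888 and 712 CPM in wild-type and 687 and 576 CPM in knockout podocytes. Single markers differed in direction: of the 11, 4 had a higher mean in knockout podocytes (Tie1, at 25.4 against 18.8 CPM, Flt1, Esam and Pecam1) and the others a lower one, led by Ehd3 (159 against 261 CPM). Vwf, another endothelial gene, was at 16.6 and 28.5 CPM in knockout against 9.20 and 14.7 CPM in wild-type podocytes. The part of endothelial RNA in the Itgb3 difference was not tested. Parietal epithelial markers (4 genes) summed to 478 and 468 CPM in wild-type and 1034 and 510 CPM in knockout podocytes, and their part in any of these differences was not tested.

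**Figure D4:**
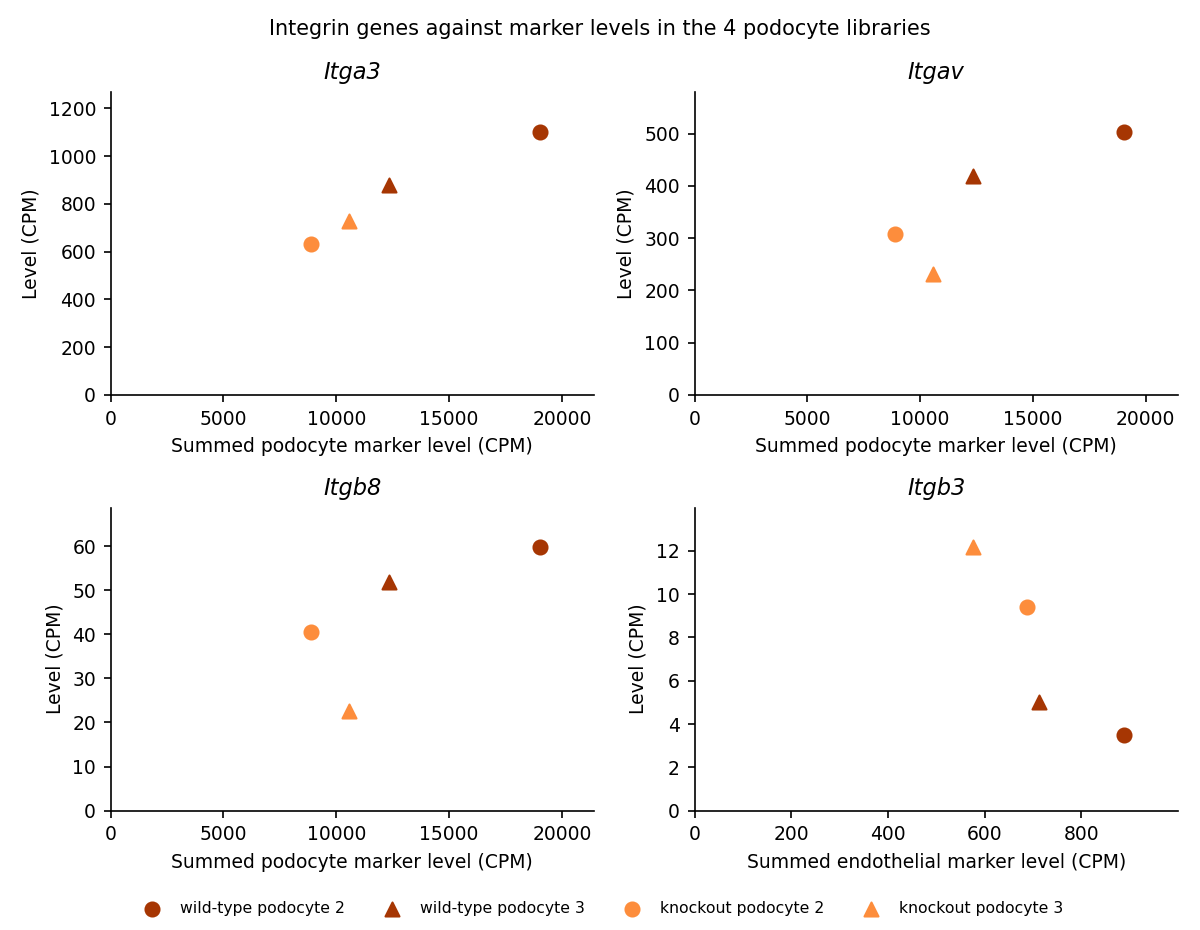
Level of 4 integrin genes in the 4 podocyte libraries (CPM) against the summed level of cell type markers in the same library (CPM); each point is 1 library. Itga3, Itgav and Itgb8 are lower in the 2 knockout libraries, which also have the lower podocyte marker sums, but between those 2 Itgav and Itgb8 are lower in the one with the higher sum. Itgb3 is at 9.38 and 12.2 CPM in the knockout libraries, whose endothelial marker sums are 687 and 576 CPM.

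In endothelium the knockout and wild-type libraries overlapped for 8 of the 10 members, and groups did not overlap for 44.5% of all genes tested. The 2 exceptions were Itga6, at 41.5 and 43.0 CPM in knockout against 48.8 and 46.3 CPM in wild type, and Itgb8, at 7.19 and 8.09 CPM against 5.01 and 5.79 CPM. Itga6 differed by -0.17 on the log2 scale (95% interval -0.67 to 0.33) and Itgb8 by 0.50 (95% interval -0.22 to 1.22). The interval bounds of the 10 members reached -1.79 at the lowest (Itga8) and 1.22 at the highest (Itgb8), and each gene's own interval gives the differences that these libraries leave possible for it. In the same comparison the podocyte markers had a median log2 difference of -0.44 (7 of 7 below 0) and the mesangial and mural markers one of 0.64 (6 of 8 with groups that did not overlap), with none of them called, and their part was not tested. The members' median was -0.18 beside 0.01 over all genes, and with libraries scaled by size only the sign turned for Itga1, Itga3, Itga6, Itgb1 and Itgb5.

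For the interaction, Itgb3 (log2 -1.29, 95% interval -2.25 to -0.33, edgeR adjusted p = 1.0) and Itgb8 (log2 1.32, 95% interval 0.33 to 2.30, edgeR adjusted p = 1.0) were the 2 members at an unadjusted p under 0.05. In wild type these genes had the largest differences between the cell types of the 10 members. For both, that difference was smaller in knockout than in wild type, and the interaction did not pass the test.

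**Figure D5:**
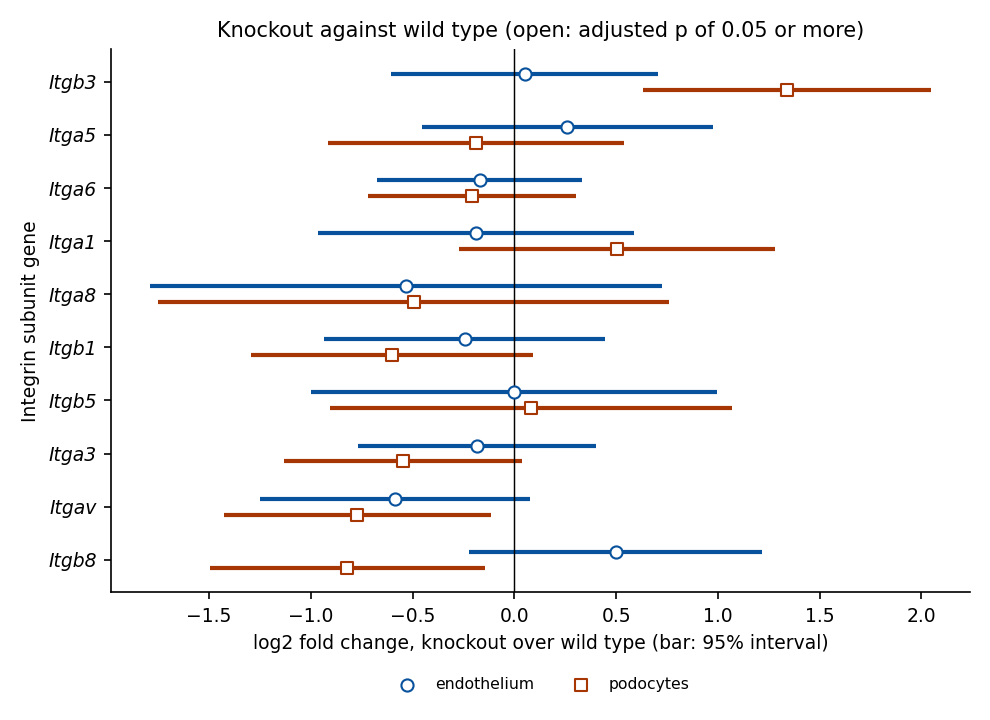
Log2 fold change of knockout against wild type for each integrin gene in endothelium and in podocytes, with 95% intervals from edgeR; open symbols did not pass the adjusted threshold. No gene passed, and the interval lies clear of 0 only for Itgb3, Itgb8 and Itgav, in podocytes.

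The 2 genes whose log2 CPM followed each member most closely were taken from 10079 genes with a mean of at least 5 CPM, by Pearson's r over the 8 libraries. The libraries share cell type, sort and depth, so these values are descriptions. Itga3 was closest to P3h1 (r = 0.998) and Niban2 (0.996), and Itgav to Fndc3b (0.998) and Susd6 (0.994). Itga6 was closest to Cavin2 (0.997), a gene of caveolae, and Arhgef15 (0.992). Itga5 was closest to Cdc42ep1 (0.987) and the Notch ligand Dll4 (0.987). Itgb3 was closest to Cenpt (0.995) and AI662270 (0.993), Itgb8 to 2310014F06Rik (0.989) and Prune1 (0.987), and Itgb5 to Pbx2 (0.990) and Rad21 (0.985). Itgb1 was closest to Kctd11 (0.993) and Myadm (0.992). Itga1 was closest to Top3a (0.978) and Nop9 (0.972), and Itga8 to Arhgef5 (0.978) and Ubr1 (0.978).

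Of 17 other integrin subunit genes, 13 could be analysed and all 13 were tested. In wild type Itgb4 and Itga9 were higher in endothelium and Itga2 was lower. Itgb4, the partner of alpha6, was at 33.2 and 27.1 CPM in wild-type endothelium against 7.52 and 6.10 CPM in podocytes (log2 fold change 2.15, SE 0.32, edgeR adjusted p = 0.00150). Its endothelial level stood above all 4 podocyte libraries, of which the knockout ones were at 13.4 and 10.4 CPM. Itga9, which pairs with beta1, was at 38.2 and 32.3 CPM against 8.30 and 18.0 CPM (log2 fold change 1.42, SE 0.36, edgeR adjusted p = 0.0307). Itga2, a collagen receptor chain, was at 5.39 and 1.52 CPM in wild-type endothelium against 16.9 and 18.5 CPM in podocytes (log2 fold change -2.35, SE 0.53, edgeR adjusted p = 0.0178). The Itga2 call was lost with scaling by library size only (adjusted p = 0.0615) or without endothelium replicate 3 (0.0726), podocyte replicate 2 (0.0764) or podocyte replicate 3 (0.0763). The Itga9 call was lost with scaling by library size only (0.0602) or without endothelium replicate 2 (0.130), endothelium replicate 3 (0.0802) or podocyte replicate 2 (0.233).

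In knockout Itgb4 (log2 fold change 1.19, edgeR adjusted p = 0.0337) and Itga9 (1.40, adjusted p = 0.0305) were again higher in endothelium, Itga2 did not pass (-1.51, adjusted p = 0.106) and Itgb6 was lower (-1.93, adjusted p = 0.0141). Itgb6 was at 25.2 and 38.1 CPM in knockout endothelium against 167 and 73.6 CPM in knockout podocytes. The Itgb6 call was not followed under the alternatives. Itga2 passed with the DESeq2 Wald test (adjusted p = 0.0291) and without wild-type endothelium replicate 2 (0.0307) or 3 (0.0290). The Itga9 call in knockout was lost without any 1 of the 4 libraries compared (adjusted p from 0.0654 to 0.146). That of Itgb4 was lost without knockout endothelium replicate 2 or any 1 podocyte library of either genotype (from 0.0510 to 0.285), with limma voom (0.0514) and with only the 4 libraries compared (0.0739). The median log2 fold change of the 13 was -0.05 in wild type and 0.18 in knockout, beside -0.01 over all genes tested in each. Of the 13, 3 were called in each genotype, against 8.99% of all genes in wild type and 10.4% in knockout. The leukocyte subunits Itgal, Itgam, Itgax and Itgb2 were at no more than 10.1 CPM in any library, and Itga2b, which pairs with beta3 in platelets, was between 4.28 and 17.6 CPM. Immune markers (6 genes) summed to between 26.1 and 121 CPM, and the 1 erythroid marker analysed to at most 1.41 CPM.

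Of 34 genes of integrin activation and focal adhesions, 29 could be analysed. In wild type 4 were higher in endothelium (Fermt3, Tgfb1i1, Lims2 and Cd9) and 5 lower (Kank1, Tns2, Tns3, Cd151 and Actn4), with a median of -0.12 over the 29. Over all genes tested 8.99% were called in wild type and 10.4% in knockout, with a median of -0.01 in each. In knockout the same genes of the list were called except Actn4, and 5 of those calls were lost in alternatives. The knockout Cd9 call was lost in 10, among them any 1 of the 8 libraries left out (adjusted p from 0.0521 to 0.254), and that of Cd151 in 7, among them any 1 of the 4 knockout libraries left out (from 0.0716 to 0.152) and scaling by library size only (0.222). Tgfb1i1 was lost without knockout endothelium replicate 2 (0.176) or knockout podocyte replicate 3 (0.120) and with only the 4 libraries compared (0.0598). Tns2 was lost without knockout endothelium replicate 3 (0.0937) or knockout podocyte replicate 2 (0.0656) and with scaling by library size only (0.105), and Tns3 without knockout endothelium replicate 2 (0.0635). Fermt3 encodes kindlin-3, the kindlin best known from blood cells, and was at 38.4 and 34.7 CPM in wild-type endothelium against 6.16 and 3.70 CPM in podocytes (log2 fold change 2.88, SE 0.33, edgeR adjusted p = 0.000307). Cd151 encodes the tetraspanin that binds alpha3 with beta1, and was at 129 and 106 CPM in wild-type endothelium against 324 and 231 CPM in podocytes (log2 fold change -1.24, SE 0.24, edgeR adjusted p = 0.00731). The Cd151 call was lost without wild-type endothelium replicate 3 (adjusted p = 0.0854) or wild-type podocyte replicate 2 (0.114).

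The largest podocyte-higher difference in that list was in Kank1, an adaptor that binds talin at the rim of adhesions, at 86.3 and 66.1 CPM in wild-type endothelium against 460 and 345 CPM in podocytes (log2 fold change -2.40, SE 0.26, edgeR adjusted p = 0.000239). Of the 3 tensins measured, which tie beta tails to actin, Tns2 and Tns3 differed by log2 fold changes of -1.75 and -1.49, and Tns1 did not pass (0.50, edgeR adjusted p = 0.359). Tgfb1i1, which encodes the paxillin relative Hic-5, differed by 1.54, Lims2, the PINCH-2 partner of ILK, by 1.18 and the tetraspanin Cd9 by 1.03. The Cd9 call was lost without any 1 of the 4 wild-type libraries (edgeR adjusted p from 0.0556 to 0.178). Lims2 was lost without either endothelial library or podocyte replicate 3 (from 0.0601 to 0.136), and Tgfb1i1 without endothelium replicate 3 (0.0598) or podocyte replicate 3 (0.111).

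Of 42 genes of extracellular integrin ligands, 24 could be analysed. The listed laminin chains other than Lamb1 and the listed type IV collagens were all among the 18 not analysed here. In wild type 6 were higher in endothelium (Edil3, Lrrc32, Fbln5, Ltbp1, Vwf and Hspg2) and 5 lower (Npnt, Thbs1, Agrn, Frem1 and Ccn1), with a median of -0.25 over the 24. In knockout 5 were higher and 7 lower, with a median of -0.62. Over all genes tested 4.26% were called higher and 4.73% lower in wild type, and 4.28% higher and 6.09% lower in knockout. The median over all genes was -0.01 in each. The call of Ccn1 (log2 fold change -1.11, edgeR adjusted p = 0.0277) in wild type was lost without any 1 of the 4 wild-type libraries (adjusted p from 0.0552 to 0.236) and under 3 other alternatives (from 0.0561 to 0.0759).

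Npnt encodes nephronectin, the ligand of alpha8 with beta1. Npnt was at 2117 and 1627 CPM in wild-type podocytes, 1521 and 947 CPM in knockout podocytes, 284 and 198 CPM in wild-type endothelium and 219 and 183 CPM in knockout endothelium. All podocyte libraries were above all endothelial ones (wild type log2 fold change -2.96, SE 0.34, edgeR adjusted p = 0.000289). Its receptor chain Itga8 did not pass the test between the same groups. Agrn, which encodes agrin, a basement membrane proteoglycan, was also lower in endothelium (log2 fold change -1.72, SE 0.27, edgeR adjusted p = 0.00213), and Thbs1, which encodes thrombospondin-1, differed by -2.36 (SE 0.40, edgeR adjusted p = 0.00358).

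Lrrc32 encodes GARP, the anchor that presents latent TGF-beta to alphav integrins. Lrrc32 was at 226 and 188 CPM in wild-type and 270 and 177 CPM in knockout endothelium, and at 18.5 and 20.5 CPM in wild-type and 25.3 and 24.2 CPM in knockout podocytes. It was thus higher in endothelium (log2 fold change 3.41, SE 0.27, edgeR adjusted p = 5.02e-05), while the beta chain of the activating receptor, Itgb8, was higher in podocytes. Edil3 and Fbln5, RGD proteins bound by alphav integrins, differed by 3.69 (SE 0.61, edgeR adjusted p = 0.00312) and 3.16 (SE 0.32, edgeR adjusted p = 0.000156). Vwf, the RGD protein of endothelial storage granules, differed by 2.01 (SE 0.34, edgeR adjusted p = 0.00340).

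No gene of these 3 lists passed the test between genotypes in either cell type or for the interaction. In endothelium the smallest unadjusted p in each list was that of Itga11 (log2 difference 1.60), Itgb1bp1 (-0.45) and Ccn1 (-0.81), each with an edgeR adjusted p of 0.716. In podocytes it was that of Itgb4 (0.81), Fermt3 (0.85) and Ltbp1 (1.23), each with an edgeR adjusted p of 0.978. For the interaction it was that of Itgb6 (-1.49), Tns1 (-0.87) and Lamb1 (-1.25), each with an edgeR adjusted p of 1.0.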

How the data were processed

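The deposited data were raw read counts in 1 table with a line per gene and a column per library, named after an alignment file, per the file headers. The RNA was polyadenylated and the libraries followed Illumina's TruSeq protocol, per the labels' protocols. The build mm10 and DESeq2 are named in the submitters' processing notes. The aligner, the counting tool, the annotation and the use of strand are not given in the sources used here. Of 22533 gene lines, 17326 held all 8 counts. On the other 5207 (23.1%) a column could not be assigned to each count, and those genes were not analysed here. For that reason alone 3 deposited columns were recorded as other values than counts. All values on complete lines were whole numbers. A total of 617 complete lines had no gene symbol.

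Counts were analysed with edgeR 4.0.16 in R 4.3.3: filterByExpr with the 4 groups, TMM scaling, 1 mean per group fitted to all 8 libraries, quasi-likelihood F tests and Benjamini-Hochberg adjustment over the 16477 genes, with a threshold of 0.05. SEs were taken as the size of the log2 fold change over the root of its F statistic. CPM used TMM-scaled library sizes, and log2 CPM a prior count of 2. Alternatives used limma 3.58.1, DESeq2 1.42.0, other scalings and filters, the replicate number as a block and each library left out. The scripts were tested on simulated data. Gene positions and transcript lengths came from RefSeq and GENCODE annotations of GRCm38, and promoter windows from RefSeq.

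The integrin members, the 3 gene lists and the markers were chosen with earlier results of these data known. Named genes were the members, Emcn, up to 4 higher and 4 lower genes of each list by adjusted p in wild type, the smallest p of each list in the other contrasts and the 2 genes most like each member. The other called list genes and the marker genes were named after their values were seen, and the comparison of members with marker sums was chosen then too.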

Additional observations from a re-analysis of the deposited data

How the results depend on the processing

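The number of called members stayed within 1.5 times its reported value under every alternative but those leaving out libraries. In wild type it was 7, and from 4 to 7 with a library left out, with 4 without wild-type podocyte replicate 3, where Itga5, Itga6 and Itgb5 were lost. In knockout it was 7, and 6 to 7. For the genotype comparisons and the interaction it was 0 under every alternative. Itga3, Itgav, Itgb3 and Itgb8 were called between the cell types in both genotypes under every alternative run. Libraries numbered alike were not treated as paired, since only 2 pairs exist and the correlation of their deviations was between -0.13 and 0.19, although the share of mitochondrial counts was higher in replicate 3 of every group. With the replicate number as a block 8 members were called in wild type, Itgb1 (-0.87) among them, and with the numbers crossed in wild-type podocytes, an alternative added after seeing the data, 7. Scaling by library size only moved the median of all genes by up to 0.33 (log2, knockout against wild type in endothelium). Depth limits Itgb8 in endothelium and Itgb3 in wild-type podocytes, at 54 to 102 counts a library.

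All signs that turned were of differences that did not pass the test, and the cause was not tested. For endothelium against podocytes in knockout, Itga8 became 0.14 with library size only, 0.019 with a minimum mean of 5 CPM, 0.00043 with the replicate block and 0.083 with limma voom. For knockout against wild type in endothelium with library size only, Itga1 became 0.14, Itga3 0.13, Itga6 0.15, Itgb1 0.064 and Itgb5 0.34. Itgb5 there became 0.16 with the 5 CPM minimum and 0.039 with only the 4 libraries compared. In podocytes Itgb5 became -0.12 with the replicate block and -0.077 with limma voom. For the interaction, Itga8 became 0.15 with library size only, 0.073 with the 5 CPM minimum, 0.28 with the replicate block and 0.29 with limma voom, and Itgb5 0.15, 0.10 and 0.053 with library size only, the replicate block and limma voom. With each library left out, Itga8 ranged from -0.69 to 0.27 between cell types in wild type and from -0.86 to 1.19 in knockout, and Itga1 from -0.84 to 0.31 in knockout. For knockout against wild type in endothelium the ranges were -0.52 to 0.067 (Itga1), -0.40 to 0.030 (Itga3), -0.078 to 0.55 (Itga5), -1.10 to 0.024 (Itga8), -0.50 to 0.054 (Itgb1), -0.17 to 0.29 (Itgb3) and -0.48 to 0.39 (Itgb5). In podocytes they were -0.19 to 0.97 (Itga1), -0.51 to 0.24 (Itga5), -1.86 to 0.19 (Itga8) and -0.81 to 0.62 (Itgb5). For the interaction they were -0.054 to 0.12 (Itga6), -0.73 to 1.32 (Itga8), -0.18 to 0.65 (Itgav) and -0.64 to 0.80 (Itgb5).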
